A study of Homo sapiens with 16 samples.

Results

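The matricellular genes described here are TNC (tenascin C), SPP1 (osteopontin), POSTN (periostin), THBS1 and THBS4 (thrombospondins 1 and 4), SPARC (osteonectin), CCN1 and CCN2 (formerly CYR61 and CTGF) and FN1 (fibronectin). They were taken by name and make up 9 of the 43388 genes in the expression table. All 9 were present under these symbols, and all 9 were among the 16122 genes that averaged 1 TPM or more and entered the tests. The values are TPM (a transcript abundance, with reads scaled for gene length and for library size) from bulk RNA-seq of hPSC-CMs, cardiomyocytes differentiated from human pluripotent stem cells.

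WTC11, the human iPSC line used, was of wild type genotype and was differentiated with the GiWi protocol (inhibition of GSK3 and then of Wnt) by way of cryopreserved ISL1-expressing cardiac progenitors. All 4 groups shared this line, the B27 supplement and standard RPMI/B27 up to Day 16. Day 16 RPMI/B27 was the baseline, and the remaining wells were kept until Day 30 in RPMI/B27 with standard glucose, in RPMI_glcM/B27 with glucose set to 5 mM, or in HPLM/B27, a medium made to resemble human plasma, with the same lowered glucose as RPMI_glcM/B27. Each group had 4 libraries, each from a single well of a 12-well plate. The p-values below measure the spread between such wells of a single line and not between lines, donors or independent differentiations. The cultures were enriched for cardiomyocytes but not sorted, so a lower level can mean fewer cells of a type or less RNA per cell, which cannot be told apart in bulk samples. Defining cardiomyocyte markers were present in every group: the summed level of the 10 genes listed, TNNT2 and MYH7 among them, lay between 11921 and 16026 TPM. Libraries held 7744768 to 16183655 reads in genes. The 2 mitochondrial ribosomal RNA genes differed widely in scale: RNR2 took 410330 to 483359 TPM per library, and RNR1 varied from 49.5 TPM to 29276 TPM.

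Matricellular proteins are secreted into the extracellular matrix, where they act mainly on how cells attach, spread and receive growth factors and less as load-bearing fibres. They bind integrins, CD44, syndecans and growth factors, and several are well-known targets of TGF-beta or of the YAP and TEAD transcription factors. In the heart many of them are abundant during development, decline afterwards and return after injury, with fibroblasts, smooth muscle cells and other stromal cells as important sources. Fibronectin is a structural glycoprotein of the matrix and a binding partner of several of the others.

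The sequences upstream of 4 members are shown because TNC and SPP1 are the members that differed between HPLM/B27 and glucose-matched RPMI, while CCN2 and THBS1 varied together from well to well. Each is the 250 bases before the annotated transcription start in RefSeq on GRCh38.p14, written 5′ to 3′ on the strand of the gene. They lie at chr9:115118158-115118407 (minus strand) for TNC, chr4:87975464-87975713 (plus strand) for SPP1, chr6:131951373-131951622 (minus strand) for CCN2 and chr15:39580829-39581078 (plus strand) for THBS1. Capitals mark matches on either strand to the TEAD core GGAATG or to the TATA box TATAAA.
TNC: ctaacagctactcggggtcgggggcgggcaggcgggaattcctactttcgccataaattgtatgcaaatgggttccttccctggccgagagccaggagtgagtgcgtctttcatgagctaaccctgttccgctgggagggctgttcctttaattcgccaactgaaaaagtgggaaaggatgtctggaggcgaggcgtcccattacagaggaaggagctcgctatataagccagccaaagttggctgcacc
SPP1: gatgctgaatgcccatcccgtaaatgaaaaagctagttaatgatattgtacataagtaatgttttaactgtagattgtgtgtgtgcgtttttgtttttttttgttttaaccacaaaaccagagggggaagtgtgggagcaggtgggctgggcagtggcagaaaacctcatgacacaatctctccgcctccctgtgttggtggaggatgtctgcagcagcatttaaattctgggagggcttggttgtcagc
CCN2: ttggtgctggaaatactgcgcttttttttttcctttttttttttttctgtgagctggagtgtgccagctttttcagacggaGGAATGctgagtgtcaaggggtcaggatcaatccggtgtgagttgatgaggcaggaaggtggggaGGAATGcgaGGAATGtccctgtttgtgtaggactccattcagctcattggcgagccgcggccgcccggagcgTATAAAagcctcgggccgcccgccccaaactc
THBS1: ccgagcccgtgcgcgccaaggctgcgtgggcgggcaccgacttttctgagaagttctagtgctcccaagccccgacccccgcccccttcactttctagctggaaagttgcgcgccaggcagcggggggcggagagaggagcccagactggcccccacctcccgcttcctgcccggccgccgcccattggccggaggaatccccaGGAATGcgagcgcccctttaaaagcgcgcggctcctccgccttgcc

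Upstream sequences were found for 8 of the 9 members. CCN2 held 3 TEAD cores, the first bases of which lay 169, 104 and 95 bases before the start, and a TATA box beginning 32 bases before it. THBS1 held 1 TEAD core, 46 bases before the start, and SPARC held 1 on the opposite strand, 17 bases before it. The AP-1 site TGANTCA was found once, in POSTN, which also held 2 TATA boxes. The E-box CACGTG was found once, in THBS4. TNC, SPP1 and FN1 held none of these in the exact letters searched, and none of the 8 held a CArG box. Variants of the TATA box, such as the TATATAA in the TNC sequence, were not searched. No match overlapped another. Among 35116 upstream sequences of the same length, 11.9% held the TEAD core, 6.57% the AP-1 site, 6.34% the E-box, 10.7% the TATA box and 1.16% a CArG box. A match describes these letters and is not evidence of binding.

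At Day 16 the members spanned a wide range of levels, which TPM allows to be compared between genes. FN1 was the highest at 399 ± 76.5 TPM (SD, n = 4), followed by SPARC at 151 ± 32.4, CCN2 at 100 ± 24.4, THBS1 at 64.0 ± 12.8, CCN1 at 42.3 ± 8.20 and POSTN at 32.1 ± 10.4 TPM. TNC, at 9.52 ± 1.43 TPM, THBS4, at 2.84 ± 0.705 TPM, and SPP1, at 2.63 ± 0.436 TPM, were low, and the last of these was supported by only 17 to 23 reads per library. In this order SPARC and CCN2, CCN2 and THBS1, THBS1 and CCN1, CCN1 and POSTN, and THBS4 and SPP1 overlapped between libraries, whereas FN1 and TNC overlapped with neither neighbour. Summed over the 9 genes, the level was 803 ± 103 TPM at Day 16, 359 ± 74.6 TPM for Day 30 RPMI/B27, 255 ± 31.8 TPM for RPMI_glcM/B27 and 310 ± 24.9 TPM for HPLM/B27 (SD, n = 4). Fibronectin alone made up 46.3% to 54.6% of this sum in the Day 16 libraries and 23.4% to 34.9% in the Day 30 libraries.

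**Figure D1:**
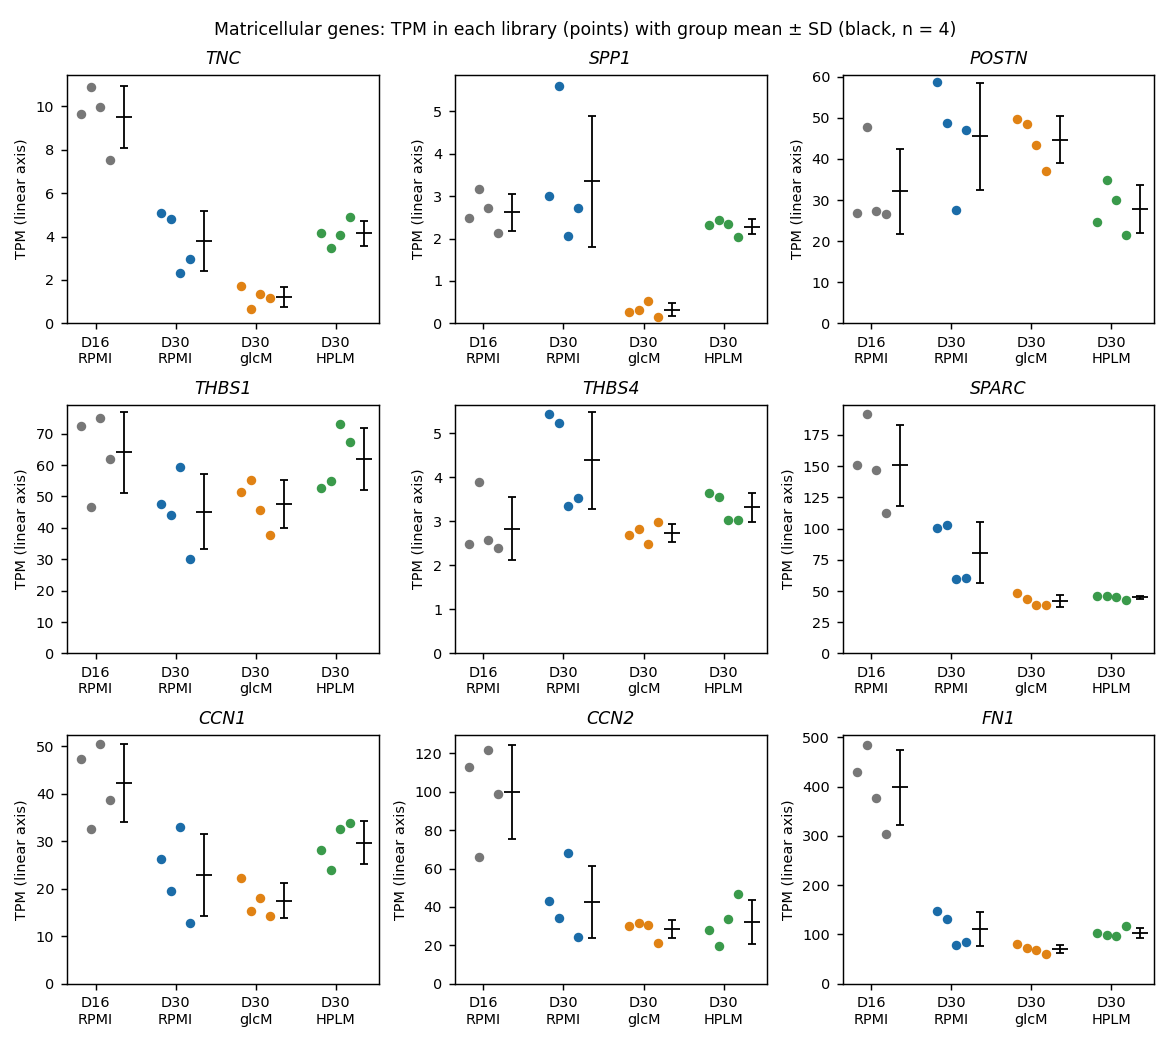
Each panel plots 1 matricellular gene, with TPM on a linear axis from 0 and the 4 groups along the horizontal axis (D16 and D30 are Day 16 and Day 30, glcM is RPMI_glcM/B27). Points are the 4 libraries of a group and the black bars are the mean ± SD. FN1 falls from 399 TPM at Day 16 to between 70.4 and 110 TPM at Day 30, while SPP1 is near 0 only in RPMI_glcM/B27, at 0.315 TPM.

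The design asks what changed between Day 16 and Day 30 in each medium, what lowering glucose did within RPMI, and what HPLM did beyond glucose. In Day 30 RPMI/B27 against Day 16, 6 of the 9 members passed an adjusted p of 0.05, where 19.9% of all genes tested did. Of these, 5 were lower (FN1, CCN2, TNC, SPARC and CCN1) against a background of 17.8% and 1 was higher (THBS4) against 2.08%. Without Day 16 replicate 2, or without Day 30 RPMI/B27 replicate 3, 8 of the 9 passed, POSTN and THBS1 in addition. In these fits 2198 and 2147 of the 16122 genes passed, against 3203 with every library kept. In RPMI_glcM/B27 against Day 16 the same 5 members and SPP1 were lower, 6 of 9, where 21.1% of all genes passed and 17.8% passed as lower. FN1, SPARC, CCN2 and TNC were lower in HPLM/B27 against Day 16, 4 of 9, where 25.4% passed and 22.4% passed as lower.

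Among the Day 30 media far fewer genes passed. In RPMI_glcM/B27 against RPMI/B27, SPP1, TNC and SPARC were lower, 3 of 9, against 2.2% of all genes in either direction and 0.837% lower. SPARC alone was lower in HPLM/B27 against RPMI/B27, 1 of 9, against 2.41% and 0.893%. SPP1 and TNC were higher in HPLM/B27 against RPMI_glcM/B27, 2 of 9, against 0.0682% in either direction and 0.0496% higher. The comparisons share groups and are therefore not independent of each other.

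Over all genes, the median log2 fold change was itself below 0 in the Day 16 comparisons, at -0.28 for RPMI/B27, -0.22 for RPMI_glcM/B27 and -0.29 for HPLM/B27, and lay between -0.06 and 0.05 among the Day 30 media. The members' medians were -0.91, -1.46 and -0.49 against Day 16, and -0.51 for RPMI_glcM/B27 against RPMI/B27, -0.30 for HPLM/B27 against RPMI/B27 and 0.38 for HPLM/B27 against RPMI_glcM/B27. Log2 fold changes are differences of mean log2(TPM + 1), a scale that understates the change of the lowest genes. When TPM was rescaled by median-of-ratios size factors, the medians of all genes moved to about 0 and the balance of calls shifted. Against Day 16 the genes higher and lower became 1413 and 1413 in RPMI/B27 instead of 336 and 2867, 2254 and 2199 in RPMI_glcM/B27 instead of 538 and 2862, and 2154 and 1919 in HPLM/B27 instead of 483 and 3605. For HPLM/B27 against RPMI_glcM/B27 they became 160 and 97 instead of 8 and 3.

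**Figure D2:**
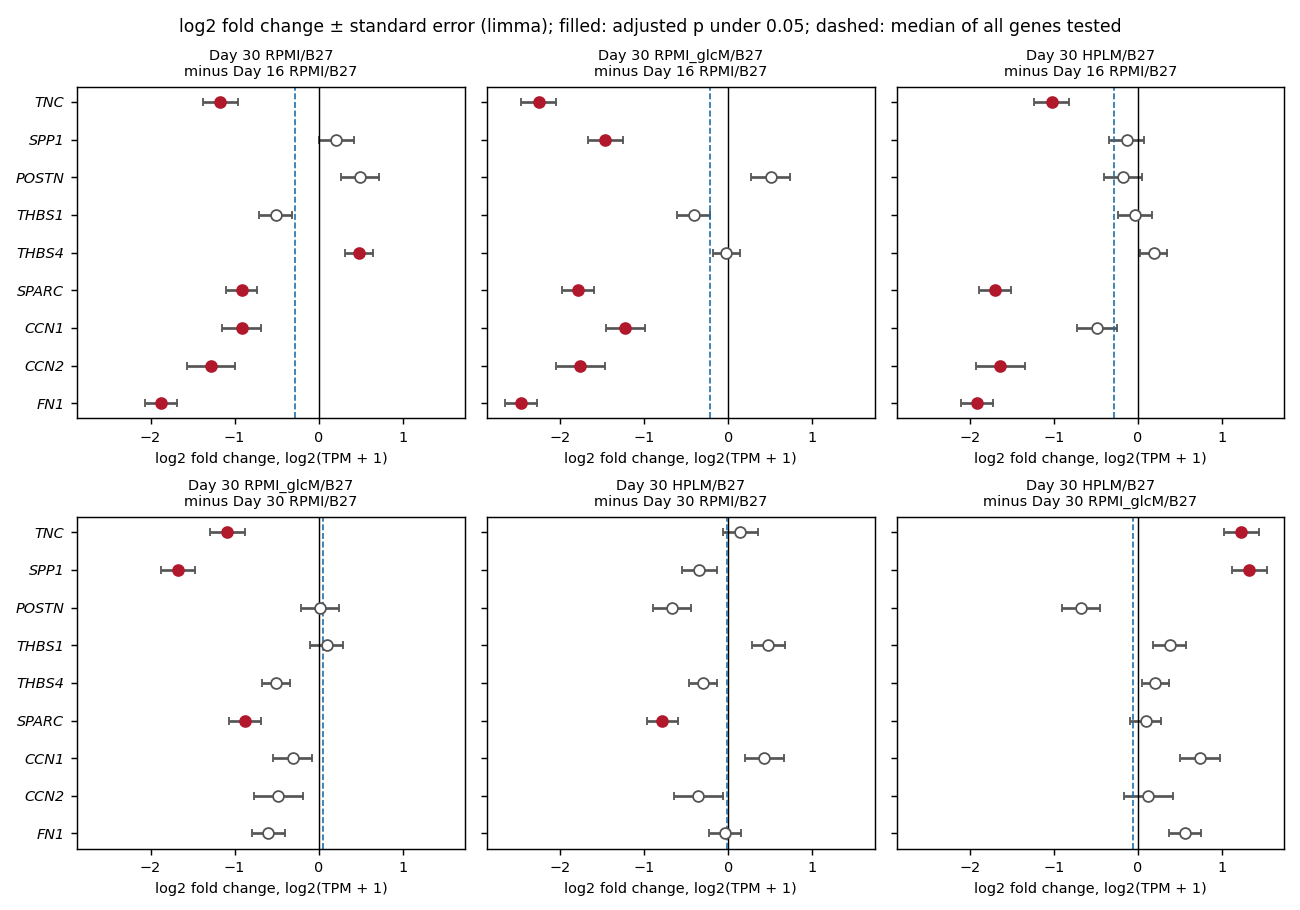
Each panel plots, for 1 comparison, the log2 fold change of the 9 members on the log2(TPM + 1) scale (horizontal axis) with its standard error. Filled points passed an adjusted p of 0.05 and the dashed line is the median of all genes tested. FN1 lies farthest to the left in the Day 16 comparisons, from -2.47 to -1.88, and in HPLM/B27 against RPMI_glcM/B27 the filled points are TNC at 1.23 and SPP1 at 1.32.

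TNC encodes tenascin C, a hexameric matrix glycoprotein that loosens the attachment of cells to fibronectin. The gene (NCBI Gene 3371) lies on chromosome 9 from 115019575 to 115118157 on GRCh38. It measured 9.66, 10.9, 9.99 and 7.53 TPM in the Day 16 libraries and 5.10, 4.82, 2.30 and 2.97 TPM in Day 30 RPMI/B27. The RPMI_glcM/B27 libraries gave 1.74, 0.648, 1.36 and 1.15 TPM, and in HPLM/B27 4.17, 3.47, 4.05 and 4.90 TPM. Every Day 16 library was above every Day 30 library, every RPMI_glcM/B27 library was below all others, and the RPMI/B27 and HPLM/B27 libraries overlapped.

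TNC fell between Day 16 and Day 30 in all 3 media. The log2 fold change was -1.17 (standard error 0.21, adjusted p = 0.00145) in RPMI/B27, -2.25 (0.21, adjusted p = 2.86e-06) in RPMI_glcM/B27 and -1.03 (0.21, adjusted p = 0.00227) in HPLM/B27. These calls held under every alternative setting run in which TNC was tested and without any 1 library. Relative to the median of all genes the differences were -0.89, -2.04 and -0.74.

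Between the Day 30 media, TNC was lower in RPMI_glcM/B27 than in RPMI/B27 by 1.09 on the log2 scale (log2 fold change -1.09, adjusted p = 0.0113) and higher in HPLM/B27 than in RPMI_glcM/B27 (1.23, standard error 0.21, adjusted p = 0.0386). Mean levels were 3.39 times as high in HPLM/B27 as in RPMI_glcM/B27. The reads behind them were 707 over the 4 HPLM/B27 libraries and 164 over the 4 RPMI_glcM/B27 libraries, a depth-scaled ratio of 3.34 (95% interval 2.81 to 3.98, counting error only). For HPLM/B27 against RPMI/B27 the log2 fold change was 0.14 (adjusted p = 0.826). The difference between HPLM/B27 and RPMI_glcM/B27 was close to the threshold: it missed it with all genes above 0 tested (adjusted p = 0.060; range over 8 alternatives 0.00073 to 0.060), without any 1 of the 8 libraries compared, and without Day 16 replicate 1 or 3 (10 libraries in all, adjusted p 0.0553 to 0.161). The glucose difference within RPMI missed it when only those groups were fitted (adjusted p = 0.147; range 0.000366 to 0.147).

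SPP1 encodes osteopontin, a phosphorylated glycoprotein that binds integrins and CD44 and is made by bone cells, macrophages and stressed tissue. It (NCBI Gene 6696) lies on chromosome 4 from 87975714 to 87983411. It measured 2.49, 3.16, 2.73 and 2.12 TPM at Day 16 and 3.00, 5.60, 2.07 and 2.73 TPM in Day 30 RPMI/B27. In RPMI_glcM/B27 it measured 0.276, 0.314, 0.520 and 0.151 TPM, and in HPLM/B27 2.31, 2.44, 2.35 and 2.03 TPM. The RPMI_glcM/B27 libraries were far below all 12 others, which overlapped one another.

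The reads show how little lies behind the lowest of these values. SPP1 had 17 to 23 reads per library at Day 16, 20 to 55 in RPMI/B27, 15 to 22 in HPLM/B27 and 2, 2, 3 and 1 in RPMI_glcM/B27. Summed reads of 77 in HPLM/B27 and 8 in RPMI_glcM/B27 gave a depth-scaled ratio of 7.45 (95% interval 3.60 to 17.9). Against RPMI/B27, with 129 reads, the ratio to RPMI_glcM/B27 was 10.6 (5.24 to 25.2), and against Day 16, with 75 reads, it was 8.49 (4.10 to 20.4). These intervals cover counting error only.

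On the log2(TPM + 1) scale SPP1 was lower in RPMI_glcM/B27 than in RPMI/B27 (-1.67, standard error 0.21, adjusted p = 0.000425) and than at Day 16 (-1.46, adjusted p = 0.000133), and higher in HPLM/B27 than in RPMI_glcM/B27 (1.32, adjusted p = 0.0220). The first and second of these held without any 1 library. The last missed the threshold without any 1 of the 8 libraries compared (adjusted p 0.0564 to 0.101) and passed without any 1 of the other 8. SPP1 did not pass in RPMI/B27 or HPLM/B27 against Day 16 (log2 fold changes 0.21 and -0.14, adjusted p = 0.475 and 0.644), nor in HPLM/B27 against RPMI/B27 (-0.35, adjusted p = 0.471). After median-of-ratios rescaling it passed as higher in RPMI/B27 than at Day 16 (0.45, adjusted p = 0.0467; range over 8 alternatives 0.0467 to 0.604), and its sign in HPLM/B27 against Day 16 turned (0.11).

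FN1 encodes fibronectin, the glycoprotein that cells assemble into fibrils through integrin alpha5 beta1. The gene (NCBI Gene 2335) lies on chromosome 2 from 215360865 to 215436068. It measured 429, 484, 377 and 304 TPM at Day 16 and 148, 132, 77.8 and 84.3 TPM in Day 30 RPMI/B27. The RPMI_glcM/B27 libraries gave 81.0, 71.5, 69.1 and 59.9 TPM, and in HPLM/B27 102, 98.5, 96.0 and 118 TPM. Every Day 16 library was above every Day 30 library, and HPLM/B27 was above RPMI_glcM/B27 with no overlap.

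FN1 fell against Day 16 in RPMI/B27 (log2 fold change -1.88, standard error 0.19, adjusted p = 1.32e-05), RPMI_glcM/B27 (-2.47, adjusted p = 4.66e-07) and HPLM/B27 (-1.92, adjusted p = 5.75e-06). These calls held under all alternatives and without any 1 library. Day 16 levels were 3.61, 5.66 and 3.85 times those of the respective Day 30 groups. Among the Day 30 media FN1 did not pass: the log2 fold change was -0.60 for RPMI_glcM/B27 against RPMI/B27 (adjusted p = 0.124) and 0.56 for HPLM/B27 against RPMI_glcM/B27 (adjusted p = 0.501). The former passed in 4 of 9 alternatives (range 0.00103 to 0.362) and the latter in 2 of 9, median-of-ratios rescaling and limma-voom on recovered reads (0.00595 and 0.0465; range 0.00595 to 0.665). FN1 overlaps the neighbouring gene ATIC, which was at 13.8 to 38.4 TPM. The strand setting of the counting is not stated, so reads in the overlap could have been assigned to either.

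SPARC encodes osteonectin, a collagen-binding protein that affects how collagen is processed in the matrix. It (NCBI Gene 6678) lies on chromosome 5 from 151661096 to 151686915. It measured 151, 191, 147 and 112 TPM at Day 16 and 101, 103, 59.2 and 60.1 TPM in Day 30 RPMI/B27. In RPMI_glcM/B27 it measured 48.5, 43.3, 38.5 and 38.7 TPM, and in HPLM/B27 46.2, 45.7, 44.9 and 42.6 TPM. The RPMI/B27 libraries fell into a higher and a lower pair, and both pairs were above all libraries of the other Day 30 media.

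SPARC fell against Day 16 in RPMI/B27 (-0.91, standard error 0.19, adjusted p = 0.00363), RPMI_glcM/B27 (-1.79, adjusted p = 9.40e-06) and HPLM/B27 (-1.70, adjusted p = 1.53e-05). It was the only member that passed as lower than in RPMI/B27 in both other Day 30 media, with log2 fold changes of -0.88 in RPMI_glcM/B27 (adjusted p = 0.0209) and -0.79 in HPLM/B27 (adjusted p = 0.0350). SPP1, THBS4, CCN2 and FN1 also had log2 fold changes below 0 in both, without passing in both. RPMI_glcM/B27 and HPLM/B27 themselves differed by 0.09 (adjusted p = 0.981). The first of these medium calls was lost without RPMI_glcM/B27 replicate 2, 3 or 4 (adjusted p 0.0584 to 0.0666). The second was lost without any HPLM/B27 library, without Day 30 RPMI/B27 replicate 1 or 2 and without Day 16 replicate 1 or 3 (0.0511 to 0.0961). When only the groups compared were fitted neither passed (0.153 and 0.152; ranges 1.81e-05 to 0.153 and 4.54e-05 to 0.152), and the second also missed with all genes above 0 tested (0.0701).

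CCN1 and CCN2 encode short-lived secreted proteins that bind integrins and are among the best-known targets of YAP and TEAD. CCN1 (NCBI Gene 3491) lies on chromosome 1 from 85580761 to 85583950 and CCN2 (NCBI Gene 1490) on chromosome 6 from 131948176 to 131951372. CCN2 measured 113, 66.2, 122 and 99.0 TPM at Day 16 and 43.2, 34.0, 68.0 and 24.2 TPM in Day 30 RPMI/B27. The RPMI_glcM/B27 libraries gave 29.8, 31.5, 30.8 and 21.4 TPM, and in HPLM/B27 28.2, 19.6, 33.7 and 46.9 TPM. The Day 16 libraries lay above all Day 30 libraries except Day 30 RPMI/B27 replicate 3, which exceeded Day 16 replicate 2.

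CCN2 fell against Day 16 in RPMI/B27 (-1.28, standard error 0.29, adjusted p = 0.00661), RPMI_glcM/B27 (-1.76, adjusted p = 0.000471) and HPLM/B27 (-1.64, adjusted p = 0.000833), and passed in no comparison among the Day 30 media (adjusted p from 0.472 to 0.981). CCN1 measured 47.3, 32.5, 50.5 and 38.6 TPM at Day 16, and 26.3, 19.5, 32.9 and 12.8 TPM in Day 30 RPMI/B27. It measured 22.3, 15.3, 18.1 and 14.3 TPM in RPMI_glcM/B27 and 28.2, 23.9, 32.6 and 33.9 TPM in HPLM/B27. HPLM/B27 was above RPMI_glcM/B27 in every library and overlapped both other groups.

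CCN1 fell against Day 16 in RPMI/B27 (-0.91, adjusted p = 0.0132) and RPMI_glcM/B27 (-1.23, standard error 0.23, adjusted p = 0.00147). In HPLM/B27 against Day 16 the value was -0.49 (adjusted p = 0.130), which passed with only the groups compared (0.0375; range over 9 alternatives 0.0375 to 0.716), and against RPMI_glcM/B27 it was 0.74 (adjusted p = 0.409). The RPMI/B27 calls depended on scaling. After median-of-ratios rescaling CCN1 (-0.58, adjusted p = 0.127; range over 9 alternatives 0.00329 to 0.127) and CCN2 (-0.95, adjusted p = 0.0648; range 0.00142 to 0.0648) no longer passed there. CCN1 also missed with RNR1 as a covariate (0.0770) and with only the groups compared (0.0675).

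THBS1 encodes thrombospondin 1, a trimeric protein that activates latent TGF-beta and binds CD36 and CD47. The gene (NCBI Gene 7057) lies on chromosome 15 from 39581079 to 39599466. It measured 72.6, 46.7, 74.9 and 61.9 TPM at Day 16 and 47.6, 44.0, 59.3 and 29.9 TPM in Day 30 RPMI/B27. In RPMI_glcM/B27 it measured 51.4, 55.4, 45.6 and 37.6 TPM, and in HPLM/B27 52.5, 54.9, 73.1 and 67.2 TPM. All groups overlapped, and THBS1 passed in none of the 6 comparisons (adjusted p from 0.0767 to 0.906). In RPMI/B27 against Day 16 it passed as lower without Day 16 replicate 2 (-0.65, adjusted p = 0.0413) or without Day 30 RPMI/B27 replicate 3 (-0.65, adjusted p = 0.0405), and with the replicate numbers as a block (-0.51, adjusted p = 0.0478; range over 9 alternatives 0.0478 to 0.640).

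THBS4 encodes thrombospondin 4, a pentameric protein of the heart and tendon. It (NCBI Gene 7060) lies on chromosome 5 from 79991332 to 80083287. It measured 2.49, 3.89, 2.58 and 2.39 TPM at Day 16 and 5.43, 5.23, 3.35 and 3.53 TPM in Day 30 RPMI/B27. The RPMI_glcM/B27 libraries gave 2.69, 2.82, 2.48 and 2.97 TPM, and in HPLM/B27 3.65, 3.56, 3.02 and 3.04 TPM. Day 30 RPMI/B27 lay above RPMI_glcM/B27 in every library, and of the Day 16 libraries replicate 2 alone reached its range.

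THBS4 rose against Day 16 in RPMI/B27 (0.48, standard error 0.17, adjusted p = 0.0495). The call stood just inside the threshold: it was lost without any 1 of 13 libraries (adjusted p 0.0579 to 0.123) and kept without Day 16 replicate 2 or Day 30 RPMI/B27 replicate 3 or 4. It was also lost with all genes above 0 tested (0.0811) and with only the groups compared (0.198; range over 8 alternatives 0.000205 to 0.198). For RPMI_glcM/B27 against RPMI/B27 the value was -0.51 (adjusted p = 0.135), which passed in 4 of 8 alternatives (range 0.00354 to 0.397). For HPLM/B27 against Day 16 it was 0.18 (adjusted p = 0.426), which passed after median-of-ratios rescaling (0.44, adjusted p = 0.00554; range 0.00554 to 0.508).

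POSTN encodes periostin, a fasciclin-domain protein of cardiac valves and activated fibroblasts. The gene (NCBI Gene 10631) lies on chromosome 13 from 37562585 to 37598768. It measured 26.8, 47.7, 27.3 and 26.6 TPM at Day 16 and 58.7, 48.8, 27.5 and 47.1 TPM in Day 30 RPMI/B27. In RPMI_glcM/B27 it measured 49.7, 48.6, 43.4 and 37.1 TPM, and in HPLM/B27 24.6, 34.8, 30.0 and 21.6 TPM. A single library stood apart at Day 16, replicate 2 on the high side, and in Day 30 RPMI/B27, replicate 3 on the low side, while HPLM/B27 lay below RPMI_glcM/B27 in every library.

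POSTN passed in none of the 6 comparisons. The values against Day 16 were 0.49 in RPMI/B27 (adjusted p = 0.133), 0.50 in RPMI_glcM/B27 (0.131) and -0.18 in HPLM/B27 (0.578, a sign that turned after median-of-ratios rescaling, to 0.16). Against RPMI/B27 and RPMI_glcM/B27 the HPLM/B27 values were -0.67 (adjusted p = 0.15) and -0.68 (0.459). RPMI_glcM/B27 against RPMI/B27 gave 0.01 (adjusted p = 0.986), a sign that turned under 3 scalings or covariates. Leaving out 1 library changed several of these. Without Day 16 replicate 2, POSTN passed as higher in RPMI/B27 (0.69, adjusted p = 0.0440) and in RPMI_glcM/B27 (0.70, 0.0343). Without Day 30 RPMI/B27 replicate 3 it passed as higher in RPMI/B27 than at Day 16 (0.71, 0.0335) and as lower in HPLM/B27 than in RPMI/B27 (-0.89, 0.0340). The same 3 comparisons also passed after median-of-ratios rescaling, with RNR1 as a covariate and with limma-voom on recovered reads (ranges over 9 alternatives 0.00456 to 0.255, 0.00441 to 0.194 and 0.0137 to 0.320).

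The wells of a group did not vary independently from gene to gene. In Day 16 replicate 2, TNC, SPP1, POSTN, THBS4, SPARC and FN1, 6 of 6, were at their group's highest and THBS1, CCN1 and CCN2, 3 of 3, at its lowest. In Day 30 RPMI/B27 replicate 3 the pattern was the opposite, with the same 3 genes at the group's highest and the other 6 at its lowest. This division of the members was chosen after the values were seen and carries no test. In the other media the split was less complete: in RPMI_glcM/B27 replicate 4 the 3 genes were lowest, as were 3 of the other 6.

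**Figure D3:**
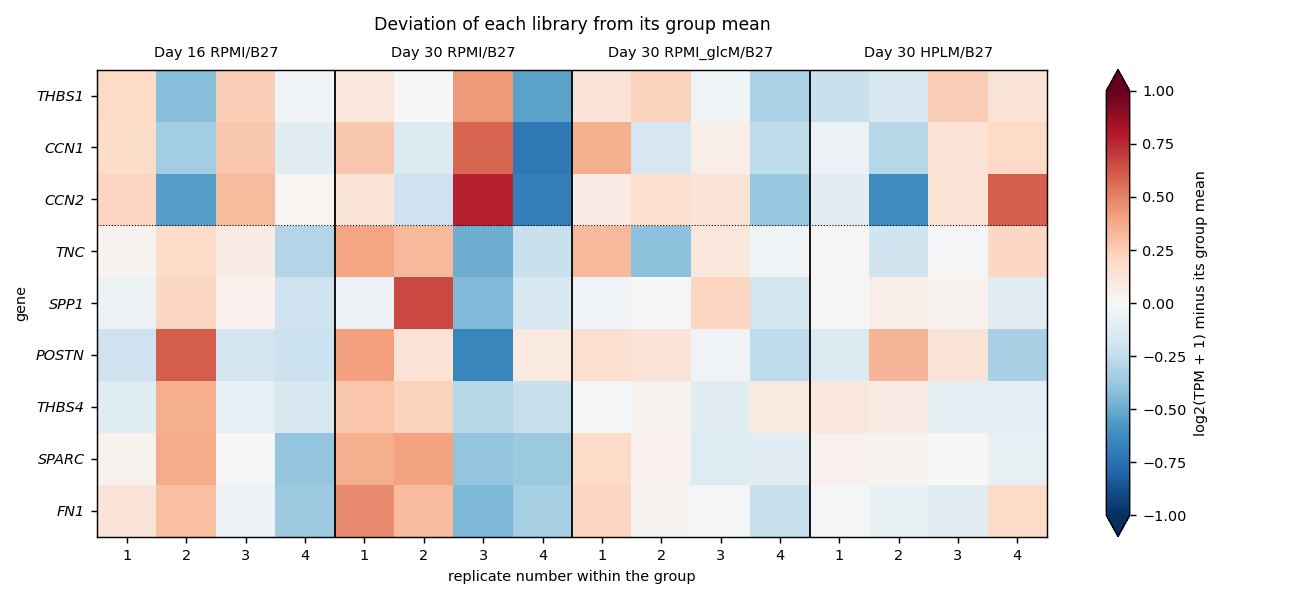
The heat map shows log2(TPM + 1) minus its group mean for the 9 genes (rows) in the 16 libraries (columns, by replicate number within each group), with red above and blue below the mean. Day 16 replicate 2 is blue for THBS1, CCN1 and CCN2 and red for the other 6 genes, and Day 30 RPMI/B27 replicate 3 shows the reverse.

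Summed levels of markers listed for other cell types also differed between these libraries and groups. Of the 6 smooth muscle markers listed, ACTA2 and CNN1 among them, MYH11 was at 0 in all 4 groups. Their summed level was 369 TPM in Day 16 replicate 2 against 697 to 825 TPM in the other Day 16 libraries. It was 997 TPM in Day 30 RPMI/B27 replicate 3 against 235 to 340 TPM in the others of that group. The 11 fibroblast markers summed to 392 TPM in Day 16 replicate 2, the highest of its group, and to 124 TPM in Day 30 RPMI/B27 replicate 3, the lowest of its group. RNR1 was at 49.5 TPM in the former library and 14387 TPM in the latter. It was at 29276 TPM in Day 30 RPMI/B27 replicate 4, where THBS1, CCN1 and CCN2 were the lowest of their group. Any link between RNR1 and these differences between wells was not tested.

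Across the groups the fibroblast sum lay at 215 to 392 TPM at Day 16, 124 to 253 TPM in RPMI/B27, 81.6 to 114 TPM in RPMI_glcM/B27 and 102 to 158 TPM in HPLM/B27. Of the 6 fibroblast markers tested, 3, 5 and 4 fell against Day 16 in the RPMI/B27, RPMI_glcM/B27 and HPLM/B27 comparisons, and none rose. Of all genes tested, 17.8%, 17.8% and 22.4% fell. The fibroblast markers not tested each averaged under 1 TPM in every group and did not all move the same way. TCF21 averaged less than at Day 16 in all 3 media. DCN and DPT averaged more in HPLM/B27 than at Day 16, and THY1 and FAP more in RPMI/B27. PDGFRA, a receptor of mesenchymal cells, averaged 60.1 TPM at Day 16 and 22.5 to 40.8 TPM at Day 30, and FAP was at 0 in every library of Day 16, RPMI_glcM/B27 and HPLM/B27. The smooth muscle sum was 261 to 343 TPM in RPMI_glcM/B27 and 278 to 497 TPM in HPLM/B27, with MYH11 at 0 in all 4 groups. Its markers did not all move alike. From Day 16 to Day 30 RPMI/B27, ACTA2 went from 364 to 178 TPM on average and CNN1 from 165 to 186 TPM. In HPLM/B27 against RPMI_glcM/B27, where TNC and SPP1 were higher, 0 of 6 fibroblast and 0 of 5 smooth muscle markers passed by limma or limma-voom, and 1 and 0 had an unadjusted p under 0.05. Few genes passed at all, 0.0682% by limma and 138 of 15423 by limma-voom, so these counts of 0 do not show equal levels. The median log2 fold changes were 0.28 for the fibroblast and 0.19 for the smooth muscle markers tested, against -0.06 for all genes. Of the 10 cardiomyocyte markers tested, 0 passed by limma, 2 passed by limma-voom and 4 had an unadjusted p under 0.05. The share of all genes at this unadjusted threshold was not counted, so the unadjusted counts have no background beside them. The epicardial marker tested, TBX18, did not pass by limma and passed as lower by limma-voom.

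The other cell types differed in level. The 11 hepatic endoderm markers summed to 438 to 770 TPM at Day 16, 316 to 555 TPM in RPMI/B27, 92.4 to 208 TPM in RPMI_glcM/B27 and 68.2 to 203 TPM in HPLM/B27. These sums join opposite changes. AFP averaged 441, 138, 55.0 and 57.0 TPM in the same order, while ALB averaged 21.2, 242, 78.1 and 49.9 TPM. SOX17 was at 0.114 TPM at Day 16 and at 0 in both RPMI groups at Day 30. The 8 endothelial markers summed to 42.7 to 54.8 TPM at Day 16 and 13.6 to 31.6 TPM at Day 30. KDR, the only endothelial marker tested, made up most of this sum, at 47.0, 19.5, 20.1 and 25.7 TPM in the same order of groups. The others each averaged under 1 TPM in every group and did not all move the same way. PECAM1 and CDH5 averaged more in Day 30 RPMI/B27 than at Day 16. The 6 epicardial markers summed to 11.3 to 16.1 TPM at Day 16, 11.6 to 28.4 TPM in RPMI/B27, 13.5 to 16.5 TPM in RPMI_glcM/B27 and 7.21 to 8.38 TPM in HPLM/B27, where all 4 libraries were below those of the other groups. TBX18, the epicardial transcription factor gene that was tested, averaged 11.1, 18.3, 12.7 and 6.46 TPM in the same order. By limma it was higher in RPMI/B27 than at Day 16, and lower in HPLM/B27 than at Day 16 and than in RPMI/B27. TBX18 made up most of the epicardial sum, and the other markers of that list did not all move the same way. WT1 averaged 0.700, 1.34, 1.10 and 0.530 TPM in the same order, and BNC1 1.60, 0.400, 0.670 and 0.503 TPM. The 7 macrophage markers, which matter for osteopontin, summed to 1.12 to 5.47 TPM over all libraries, with AIF1 at 0 in all 4 groups. The 4 pluripotency markers summed to 7.11 to 9.37 TPM at Day 16 and 1.64 to 3.70 TPM at Day 30, with POU5F1 and NANOG near 0. LIN28A and DNMT3B, the 2 tested, were lower than at Day 16 in all 3 media by limma. Of all genes tested, 17.8%, 17.8% and 22.4% were. The part that any of these cell types played in the members' differences was not tested.

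**Figure D4:**
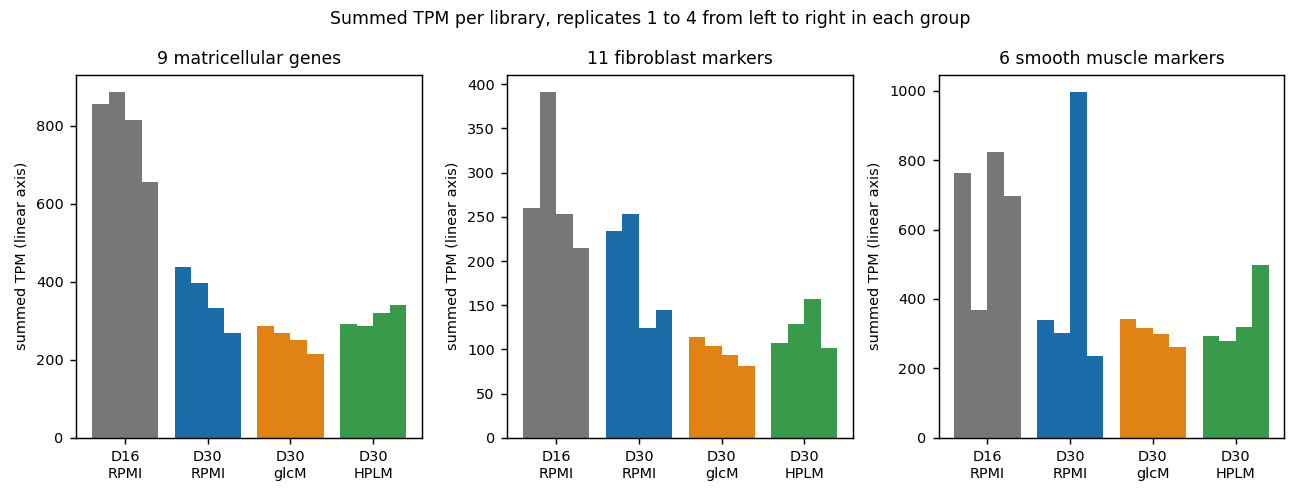
Bars show summed TPM in each library (linear axis from 0, replicates 1 to 4 from left to right) for the 9 matricellular genes, the 11 fibroblast markers and the 6 smooth muscle markers. The matricellular sum is 655 to 887 TPM at Day 16 and 213 to 438 TPM at Day 30, and the tallest smooth muscle bar is Day 30 RPMI/B27 replicate 3 at 997 TPM.

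Other matricellular genes were mostly too low to test, 6 of 22 reaching a mean of 1 TPM. TGFBI, a fasciclin-domain relative of periostin induced by TGF-beta, fell from 21.9 ± 3.99 TPM at Day 16 to 7.42 ± 1.16 in RPMI/B27, 2.83 ± 0.871 under RPMI_glcM/B27 and 5.69 ± 1.60 in HPLM/B27 (SD, n = 4; adjusted p = 0.000244, 4.66e-07 and 1.81e-05). It was also lower in RPMI_glcM/B27 than in RPMI/B27 (-1.16, adjusted p = 0.00608), and for HPLM/B27 against RPMI_glcM/B27 the value was 0.80 (adjusted p = 0.187). SPOCK1, the proteoglycan testican 1, went the other way, from 7.39 ± 1.10 TPM at Day 16 to 27.6 ± 8.33, 27.5 ± 3.95 and 22.1 ± 3.47 TPM (adjusted p = 2.56e-05, 1.09e-05 and 5.77e-05). FSTL1, a secreted SPARC relative, fell in RPMI_glcM/B27 (-0.62, adjusted p = 0.0393) and HPLM/B27 (-1.01, adjusted p = 0.00208). SPARCL1 rose in RPMI_glcM/B27, from 0.993 ± 0.329 to 2.72 ± 0.752 TPM (adjusted p = 0.0101), and was at 1.55 ± 0.771 TPM in RPMI/B27 and 1.83 ± 0.1999 TPM in HPLM/B27 (adjusted p = 0.311 and 0.0982). The list's median log2 fold change against Day 16 was -0.04, 0.0037 and -0.10 for the 3 media in the same order.

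Of 22 receptors of matricellular proteins, 17 were tested. Against Day 16, 2 rose and 4 fell in RPMI/B27, 3 rose and 5 fell in RPMI_glcM/B27, and 2 rose and 3 fell in HPLM/B27. The 6, 8 and 5 of 17 called stand beside 19.9%, 21.1% and 25.4% of all genes. With limma-voom 11, 12 and 12 of 17 were called, beside 3678, 3950 and 4811 of all 15423 genes. ITGA5, the fibronectin receptor subunit, fell from 21.5 ± 4.64 TPM to 13.6 ± 2.56 in RPMI/B27 and 12.2 ± 1.24 in RPMI_glcM/B27 (adjusted p = 0.0109 and 0.00227) and was at 17.0 ± 1.49 TPM in HPLM/B27 (adjusted p = 0.146). ITGA6, a laminin receptor subunit, fell in all 3 media, by 1.02 to 1.08 on the log2 scale. ITGA9, whose integrin binds tenascin C and osteopontin, differed by medium: it was at 3.14 ± 0.727 TPM at Day 16, 1.58 ± 0.639 in RPMI/B27, 4.85 ± 1.05 under RPMI_glcM/B27 and 5.45 ± 0.493 in HPLM/B27. It was higher than in RPMI/B27 in both other Day 30 media (1.199 and 1.355, adjusted p = 0.00446 and 0.00130), and the latter were not separated (0.16, adjusted p = 0.965). CD44, a receptor of hyaluronan and osteopontin, rose from 1.23 ± 0.250 to 2.97 ± 0.640 TPM in RPMI/B27 (adjusted p = 0.00428) and was at 1.48 ± 0.338 TPM in RPMI_glcM/B27 and 2.12 ± 0.359 TPM in HPLM/B27.

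Further YAP and TEAD targets, 16 of 19 tested, fell in part: 5, 7 and 9 were lower than at Day 16 in the 3 media in that order, beside 17.8%, 17.8% and 22.4% of all genes tested. CCDC80, a secreted matrix-associated protein, fell from 45.03 ± 3.82 TPM to 17.0 ± 1.63, 10.99 ± 1.49 and 12.2 ± 1.67 TPM (adjusted p = 5.13e-06, 9.60e-08 and 1.55e-07). AXL, a receptor tyrosine kinase, fell from 25.3 ± 6.54 to 11.6 ± 3.22, 8.22 ± 1.11 and 8.51 ± 1.36 TPM. AMOTL2, an angiomotin that binds YAP, and CRIM1, a transmembrane protein that binds growth factors, also fell in all 3 media, with log2 fold changes from -1.12 to -0.82. The median of the list was -0.34, -0.44 and -0.51 against -0.28, -0.22 and -0.29 for all genes.

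In the TGF-beta pathway all 17 genes were tested, and 6, 6 and 8 fell against Day 16, where 17.8%, 17.8% and 22.4% of all genes did. TGFB2, the most abundant of the ligands, fell from 247 ± 22.4 TPM to 116 ± 27.3 in RPMI/B27, 99.4 ± 16.8 under RPMI_glcM/B27 and 78.5 ± 3.06 in HPLM/B27 (adjusted p = 0.000266, 3.01e-05 and 4.10e-06). TGFB3 and SMAD3, which carries the signal to the nucleus, fell in all 3 media as well. TGFB1 fell in RPMI_glcM/B27 (-1.12, adjusted p = 0.000227) and HPLM/B27 (-0.63, adjusted p = 0.0125) and was lower in RPMI_glcM/B27 than in RPMI/B27 (-0.74, adjusted p = 0.0288). The median of the list was -0.36, -0.36 and -0.53.

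Of the matrix proteases and inhibitors, 11 of 19 were tested, and 4, 5 and 6 fell against Day 16 (all genes 17.8%, 17.8% and 22.4%), while 0, 2 and 0 rose. MMP2, a gelatinase, fell from 9.45 ± 2.04 TPM to 3.36 ± 1.06, 1.84 ± 0.831 and 1.91 ± 0.267 TPM. MMP14, the membrane protease that activates it, was at 18.4 ± 5.01 TPM at Day 16 and 13.2 ± 3.58, 5.54 ± 1.11 and 7.66 ± 1.62 TPM at Day 30. It fell in RPMI_glcM/B27 and HPLM/B27 (adjusted p = 0.000122 and 0.00135) and was lower in RPMI_glcM/B27 than in RPMI/B27 (-1.10, adjusted p = 0.0135). ADAMTS1, which cleaves proteoglycans, and SERPINE2, a secreted protease inhibitor, fell in all 3 media. In HPLM/B27 against RPMI_glcM/B27 no gene of the 5 lists passed by limma, where 0.0682% of all genes did. At an unadjusted p under 0.05 there was 1 among the other matricellular genes, 1 among the receptors, 0 among the YAP and TEAD targets, 3 in the TGF-beta pathway and 2 among the proteases and inhibitors. The share of all genes at this unadjusted threshold was not counted, so these counts cannot be set against 0.0682%. In the lists limma-voom called 2, both in the last list, and 138 of all 15423 genes. The smallest adjusted p among them was 0.0686, for ADAMTS1, which averaged 13.2 TPM in RPMI_glcM/B27 and 7.20 TPM in HPLM/B27.

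The genes most like TNC in pattern, by Pearson correlation of log2(TPM + 1) over the 16 libraries among 14198 genes, were CDH6 (0.951), PURG (0.939) and ADGRG6 (0.937). CDH6, a cadherin, averaged 2.51 TPM at Day 16, 1.06 in RPMI/B27, 0.374 under RPMI_glcM/B27 and 1.14 in HPLM/B27. ADGRG6, an adhesion receptor, averaged 10.2, 6.72, 3.83 and 5.80 TPM in the same order. The genes most like SPP1 were S100A13 (0.877), TMOD2 (0.873) and KCNMB4 (0.858). S100A13, a calcium-binding protein, averaged 34.1, 45.3, 25.8 and 39.3 TPM, so that it too was lowest in RPMI_glcM/B27. These correlations rest on groups that differ in mean and on shared libraries, and are given as a description.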

How the data were processed

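RNA-seq was performed on 16 wells in 4 groups of 4, grouped and numbered by the labels. The design text names 3 wells per medium where the labels list 4. Libraries were made with the SMARTer stranded total RNA kit. Per the submitters' processing notes and the study's methods, the authors aligned reads to hg38 with STAR 2.5.3a, counted them with featureCounts 2.0.3 and used R 4.1.3. The deposited values are TPM, made by the authors. The annotation, gene lengths, TPM tool and strand setting are not given in the sources used here.

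Of 43388 genes, 31047 were above 0, and whole reads could be recovered from the TPM ratios for all of these, giving 7744768 to 16183655 reads per library. A read on 1000 bases was worth 0.139 to 0.314 TPM. limma 3.58.1 in R 4.3.3 (empirical Bayes with trend) was fitted on log2(TPM + 1) over all 4 groups for the 16122 genes averaging 1 TPM or more. P-values were adjusted by Benjamini-Hochberg within each of 6 comparisons and called under 0.05. The study's count test was not used as the main test because the values are TPM. The scripts were tested on simulated data. Figures were drawn with matplotlib 3.10.9 under Python 3.11.15.

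Alternatives were a pseudocount of 0.1, all genes above 0, an average of 5 TPM or more (9753 genes), median-of-ratios rescaling, rescaling without 72 mitochondrially encoded and ribosomal RNA genes (16090 genes), only the groups compared, a replicate block, RNR1 as a covariate, limma-voom on recovered reads (mean of at least 10 reads, 15423 genes), and each of the 16 libraries left out. The text names all 9 members, up to 4 genes of each of 5 gene lists with the smallest adjusted p, and the 3 genes most correlated with TNC and with SPP1 (mean of at least 10 reads). 8 cell type marker lists were summed. The members and lists were chosen with earlier results of these data known. Gene positions and upstream sequences are from RefSeq on GRCh38.p14.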

Additional observations from a re-analysis of the deposited data

Results flagged for a closer look

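In 3 of the 36 sets of 4 libraries (9 genes in 4 groups) a single library lay far from the others of its group, with a gap to its nearest neighbour above Dixon's critical share of the group's range. Chance alone gives about 1 such set in 20. POSTN was at 47.7 TPM in Day 16 replicate 2 against 26.6 to 27.3 TPM in the other Day 16 libraries (gap over range 0.967). THBS4 was at 3.89 TPM in the same library against 2.39 to 2.58 TPM in the others (0.877). CCN2 was at 21.4 TPM in Day 30 RPMI_glcM/B27 replicate 4, below the 29.8 to 31.5 TPM of the other libraries of that group (0.837).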

How the results depend on the processing

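Over 9 alternatives with every library kept, 420 of 468 member results kept their direction and side of the threshold, 11 lost and 23 gained a call, and 14 changed sign; with 1 library left out these were 799, 42, 6 and 17 of 864. Where no cause is named, it was not tested. The members called in RPMI_glcM/B27 against RPMI/B27 (3) became 1 at a mean of at least 5 TPM, where TNC, SPP1 and THBS4 were not tested, 1 with only the groups compared, and 5 under median-of-ratios rescaling, without mitochondrial and ribosomal RNA genes, with RNR1 and with limma-voom. All genes called there were 354 in the main fit and 304, 45, 1952, 1091, 727 and 1220 under these settings in the order named. In HPLM/B27 against RPMI/B27 (1) the members called became 0 with all genes above 0 or only the groups compared and 2 under median-of-ratios, RNR1 and limma-voom. All genes called were 388 in the main fit and 279, 81, 2092, 1104 and 1564 in that order. In HPLM/B27 against RPMI_glcM/B27 (2) the members called became 1 with all genes above 0, 0 at 5 TPM and 3, FN1 added, under median-of-ratios and limma-voom. All genes called were 11 in the main fit and 10, 14, 257 and 138 in that order. Leaving out 1 library gave 5 to 8, 6 to 7, 4, 2 to 3, 0 to 2 and 0 to 2 members in the 6 comparisons. Genes called ranged over the alternatives from 998 to 4734, 2288 to 4578, 2997 to 5834, 45 to 1952, 81 to 2092 and 10 to 257. With 1 library left out they ranged from 1761 to 5012, 2322 to 4105, 2820 to 5050, 143 to 441, 187 to 519 and 1 to 35. Same-numbered libraries deviated together little (24 pairs, correlation -0.066 to 0.211, median 0.023 against -0.012 for other pairs). Of 16 libraries, 7 correlated best with their own number, and whether the numbers pair the wells was left unsettled. A replicate block gave 7, 6, 4, 3, 1 and 2 members and 4734, 4487, 5520, 721, 732 and 48 genes. The main fit called 3203, 3400, 4088, 354, 388 and 11 genes. Signs changed under median-of-ratios for SPP1 (0.11), POSTN (0.16) and THBS1 (0.31) in HPLM/B27 and THBS4 (0.18) in RPMI_glcM/B27 against Day 16, and POSTN (-0.051) in RPMI_glcM/B27 against RPMI/B27. Without mitochondrial and ribosomal RNA genes they changed for THBS1 (0.11), THBS4 (0.017) and POSTN (-0.031) in the same comparisons and FN1 (0.016) in HPLM/B27 against RPMI/B27, with RNR1 for THBS1 (0.021), THBS4 (0.071) and POSTN (-0.14), and with limma-voom for THBS1 (0.10) and THBS4 (0.10). With 1 library left out, log2 fold changes that crossed 0 ranged from -0.022 to 0.27 (TNC, HPLM/B27 against RPMI/B27), -0.011 to 0.36 (SPP1, RPMI/B27 against Day 16), -0.29 to 0.021 (POSTN) and -0.18 to 0.045 (THBS1) in HPLM/B27 against Day 16, -0.076 to 0.099 (THBS4, RPMI_glcM/B27 against Day 16), -0.20 to 0.15 (POSTN) and -0.083 to 0.24 (THBS1) in RPMI_glcM/B27 against RPMI/B27, -0.19 to 0.11 (FN1, HPLM/B27 against RPMI/B27) and -0.077 to 0.33 (CCN2, HPLM/B27 against RPMI_glcM/B27). Depth limits SPP1 most, with 1 to 3 reads per RPMI_glcM/B27 library.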
